A study of Mus musculus with 12 samples.

Results

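The GIMAP genes encode a family of small GTPases of lymphocytes, and all 8 mouse members considered here, Gimap1, Gimap3, Gimap4, Gimap5, Gimap6, Gimap7, Gimap8, and Gimap9, were found by symbol in both deposited tables, out of 11247 genes listed in either table. No other symbol of the tables begins with Gimap. Naive CD4+ T cells were isolated on CD62L from the spleens of C57BL/6 mice 8 to 10 weeks old, and all cultures were activated for 3 d with plate-bound anti-CD3 at 1 µg/ml and anti-CD28 at 1 µg/ml. Th0 cells received no polarizing cytokine. Th17 cells received IL6 (30 ng/ml), TGFβ1 (5 ng/ml), and antibodies against IL4 and IFNγ (10 µg/ml), and iTreg cells received IL2 (10 ng/ml) and TGFβ1 (10 ng/ml), as the sample labels give the concentrations. For the TGFβ1 of iTreg cultures the study's methods name another concentration than the labels. RNA of 4 cultures of each kind was sequenced, 12 libraries in all. Libraries are named here by their column headings, which end in 1 for Th0, in 5 for Th17, and in 4 for iTreg and do not say from which experiment a library came. The headings begin alike in every group (M22, M29, M42, and M43), with no word on what these beginnings mark.

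GIMAP proteins share a guanine nucleotide-binding domain of the AIG1 type and are found in cells of vertebrates, above all in T and B lymphocytes, where several of them sit on internal membranes. They bind GTP and can assemble with themselves or with other members on a membrane, and some members hydrolyse GTP only when paired with another member. The family is known for the survival and the quiescence of lymphocytes. Loss of Gimap5 causes lymphopenia in rats and mice, and loss of Gimap1 depletes mature T and B cells.

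The 8 genes lie side by side on mouse chromosome 6 (GRCm38, the mm10 build), from base 48647234 to base 48770851, a stretch of 124 kb. Their order is Gimap8, Gimap9, Gimap4, Gimap6, Gimap7, Gimap1, Gimap5, and Gimap3. Gimap6 and Gimap3 are on the minus strand and the other 6 on the plus strand. The 250 bases before the RefSeq start (GRCm38.p6) are shown for 4 members, Gimap7, Gimap5, and Gimap6 because the largest differences between Th17 and Th0 cells were theirs, and Gimap4 because it was the member that differed between Th17 and iTreg cells. Capitals mark matches, on either strand, to the ETS motif GGAAGT, the RUNX motif TGTGGT, and the STAT motif TTCNNNGAA.
Gimap4, chr6:48684328-48684577, plus strand: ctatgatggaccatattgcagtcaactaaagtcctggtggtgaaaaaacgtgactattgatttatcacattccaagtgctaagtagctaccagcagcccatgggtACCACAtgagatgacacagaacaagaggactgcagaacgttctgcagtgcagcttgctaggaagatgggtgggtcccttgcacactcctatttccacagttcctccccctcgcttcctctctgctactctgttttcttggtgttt
Gimap6, chr6:48708245-48708494, minus strand: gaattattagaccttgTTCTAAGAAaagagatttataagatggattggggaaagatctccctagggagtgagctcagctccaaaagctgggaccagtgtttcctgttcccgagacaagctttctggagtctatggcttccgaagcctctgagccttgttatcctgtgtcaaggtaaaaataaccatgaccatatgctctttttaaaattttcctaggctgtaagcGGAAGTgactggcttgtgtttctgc
Gimap7, chr6:48718371-48718620, plus strand: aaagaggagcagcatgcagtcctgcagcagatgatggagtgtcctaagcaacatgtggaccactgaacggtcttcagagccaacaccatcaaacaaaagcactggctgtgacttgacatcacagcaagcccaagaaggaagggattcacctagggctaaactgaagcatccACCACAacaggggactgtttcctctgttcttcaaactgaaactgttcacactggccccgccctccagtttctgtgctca
Gimap5, chr6:48745947-48746196, plus strand: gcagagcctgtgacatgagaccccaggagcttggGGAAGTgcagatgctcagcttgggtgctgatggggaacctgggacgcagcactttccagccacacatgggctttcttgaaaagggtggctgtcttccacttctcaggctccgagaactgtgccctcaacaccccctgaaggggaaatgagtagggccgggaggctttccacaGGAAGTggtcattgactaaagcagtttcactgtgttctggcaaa

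In windows that also hold the first 50 bases after the start, 10 motifs were searched on both strands in all 32851 promoter windows of the RefSeq table. The ETS motif stood in windows of 4 members (Gimap1, Gimap5, Gimap6, and Gimap9) and in 23.8% of all windows, the RUNX motif in those of 3 (Gimap1, Gimap4, and Gimap7) against 16.8% of all windows, and the STAT motif in those of 4 (Gimap3, Gimap6, Gimap7, and Gimap8) against 8.30%. The FOXO motif TGTTTAC was found only for Gimap3 (3.65% of all windows), and its looser form TGTTTNC, which includes the former, for 4 members (20.5%). The KLF motif CCCACCC stood in 2 members' windows (17.5%), the TCF motif CTTTGA in 2 (16.0%), the TATA motif TATAAA in 1 (13.6%), and the string GGAAAGT in 1 (4.97%). The SMAD motif GTCTAGAC was in none of the members' windows and in 0.213% of all. A match is a description of the letters and not a bound site.

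FPKM scales the fragments of a gene by its length and by the size of the library. The gene lengths behind the deposited values are not given. The order of the members and their shares of a sum therefore hold for these FPKM values and rest on those lengths. Fold changes are given as log2FC, on the log2(FPKM + 1) scale, with their standard error (SE) and a p adjusted over all genes tested. The FPKM values of every listed gene were whole multiples of the worth of 1 fragment, which gave the fragments behind them. The listed genes summed to between 7.29 M and 9.59 M fragments in the Th0 and Th17 libraries and to between 9.39 M and 10.8 M in the iTreg libraries. The labels were checked first. Il17f, a cytokine gene of Th17 cells, measured 482 ± 222 FPKM in the Th17 group against 0.124 ± 0.0408 FPKM in the Th0 group (SD, n = 4). Foxp3, the lineage transcription factor of regulatory T cells, was at 75.2 ± 13.5 FPKM in iTreg cells and 4.84 ± 2.55 FPKM in Th0 cells. Il17f was above Th0 in iTreg cells too, at 57.6 ± 32.4 FPKM. Foxp3 varied widely in the Th17 group, from 0.499 to 42.5 FPKM, against 2.04 to 7.24 FPKM in the Th0 libraries of that table. Foxp3 did not pass the test in Th17 cells (log2FC -0.17, adjusted p = 0.93). The part of this spread in the GIMAP differences was not tested. The T cell genes Cd3e, Cd3d, Cd3g, Cd4, and Cd28, 5 of 6 markers of CD4+ T cells listed, summed to 738 to 1673 FPKM in Th0, 523 to 1048 FPKM in Th17, and 587 to 903 FPKM in iTreg libraries. Their median log2FC was -0.63 in Th17 and -0.51 in iTreg cells, Cd4 was lower in Th17 cells (log2FC -1.54, adjusted p = 0.038), and the other 4 did not pass the test in Th17 cells, nor any of the 5 in iTreg cells. The part of these genes in the GIMAP differences was not tested. Nkg7, the only listed gene of 3 NK cell markers, ranged from 6.58 to 58.8 FPKM in Th0 cells, from 0.301 to 3.28 FPKM in Th17 cells, and from 25.1 to 53.5 FPKM in iTreg cells, and its part in the GIMAP differences was not tested. Pecam1, the only listed gene of 3 endothelial markers, was at 12.1 to 22.9 FPKM in Th0 cells, 3.59 to 9.44 FPKM in Th17 cells, and 4.598 to 8.32 FPKM in iTreg cells, and its part was not tested either. Cd79a, the only listed one of 4 B cell markers, did not exceed 3.84 FPKM in any library.

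In Th0 cells the order of the mean levels was Gimap3, Gimap4, Gimap6, Gimap1, Gimap9, Gimap8, Gimap5, and Gimap7. Gimap3 had a mean of 283 ± 139 FPKM (SD, n = 4) and Gimap7 of 10.3 ± 1.36 FPKM. Only 2 pairs of neighbours in that order had ranges that did not overlap, Gimap6 above Gimap1 and Gimap5 above Gimap7. The spread within Th0 differed widely between members. Gimap5 had a coefficient of variation of 4.08%, whereas those of Gimap8, Gimap3, and Gimap9 were 55.3%, 49.1%, and 36.8%. Library M29_1 was the highest of the 4 Th0 libraries for Gimap1, Gimap3, Gimap6, Gimap8, and Gimap9, and it was the lowest for Gimap5 and Gimap7.

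**Figure D1:**
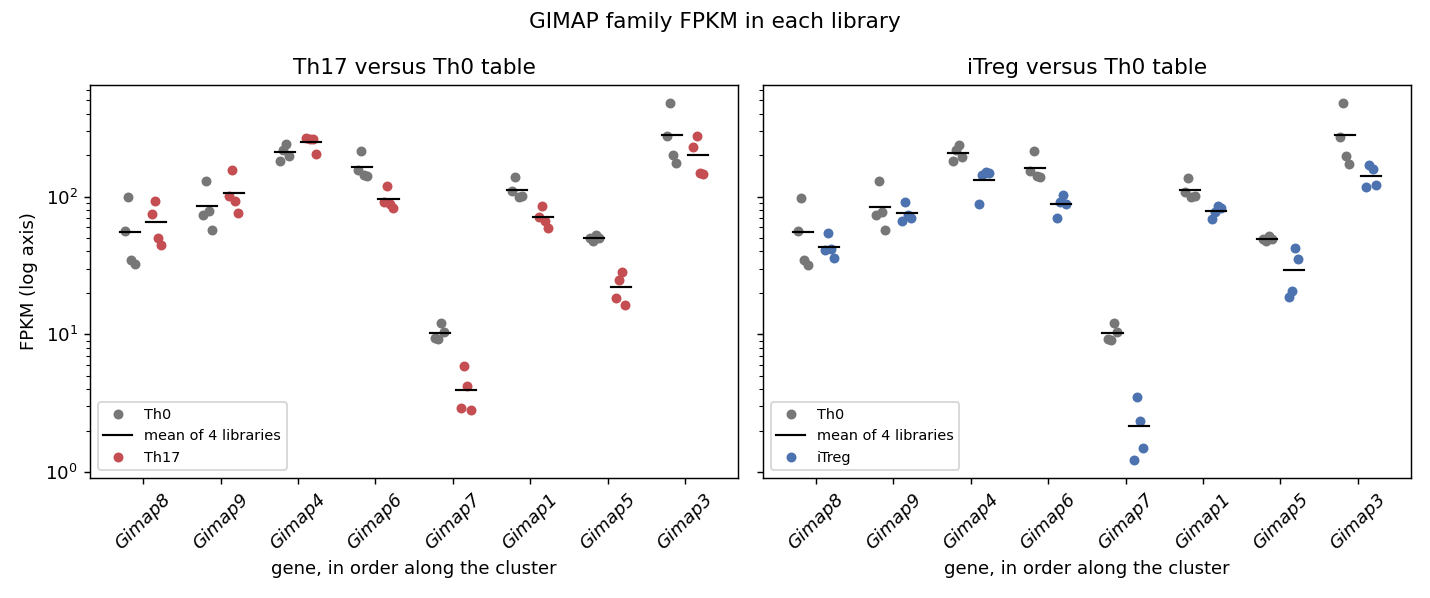
FPKM (log axis) of the 8 GIMAP genes in each library, with the Th17 versus Th0 table on the left and the iTreg versus Th0 table on the right. Each point is a library and each bar the mean of 4 libraries. Gimap7 and Gimap5 of the Th17 libraries lie wholly below those of Th0, the Gimap7 values of iTreg cells lie between 1.23 and 3.51 FPKM, and library M29_1 stands at the top of the Th0 points of Gimap8, Gimap9, and Gimap3.

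To see how Th17 polarization changed the family, Th17 cells were compared with Th0 cells. Of the 8 members, 4 were lower in Th17 cells and none was higher (limma on log2(FPKM + 1), adjusted p under 0.05 over all genes tested), where 8.69% of the 10269 genes tested were lower, 10.6% were higher, and 19.3% were called in all. The 4 were Gimap7, Gimap5, Gimap6, and Gimap1. The median log2FC was -0.54 over the members and -0.00071 over all genes tested. In bulk cultures fewer cells of a type and less RNA per cell cannot be told apart.

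Gimap7, whose protein hydrolyses GTP as a dimer and can stimulate the hydrolysis of other members, was the least abundant member. It was at 9.36, 9.23, 12.2, and 10.5 FPKM in the Th0 libraries M22_1, M29_1, M42_1, and M43_1 and at 2.90, 5.89, 4.22, and 2.80 FPKM in the Th17 libraries M22_5, M29_5, M42_5, and M43_5. Every Th17 library was below every Th0 library. The mean level in Th17 cells was 38.3% of that in Th0 cells, and the log2FC was -1.23 (SE 0.20, adjusted p = 0.0029). This member rested on 30 to 143 fragments in a library, the fewest of the family.

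Gimap5, a membrane-anchored member needed for the survival of peripheral T cells, was at 49.8, 47.8, 52.8, and 49.8 FPKM in the Th0 libraries and at 18.2, 24.8, 28.4, and 16.3 FPKM in the Th17 libraries, in the same order of headings. The groups did not overlap, and the Th0 libraries lay within 5 FPKM of each other. The Th17 mean was 43.8% of the Th0 mean, with a log2FC of -1.19 (SE 0.17, adjusted p = 0.0015).

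Gimap6, whose protein is a partner of the autophagy protein GABARAPL2, was at 155, 216, 144, and 141 FPKM in Th0 cells and at 91.5, 120, 88.0, and 83.1 FPKM in Th17 cells. All Th17 libraries were below all Th0 libraries. The log2FC was -0.76 (SE 0.17, adjusted p = 0.015), and the Th17 mean was 58.4% of the Th0 mean.

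Gimap1, which mature lymphocytes need to persist, was at 109, 139, 100.3, and 102 FPKM in Th0 cells and at 71.5, 86.1, 67.0, and 59.3 FPKM in Th17 cells, again without overlap. Its log2FC was -0.66 (SE 0.15, adjusted p = 0.016), and the Th17 mean was 63.1% of the Th0 mean. In the GENCODE M21 annotation 36.0% of the exonic bases of Gimap1 are shared with the antisense gene Gimap1os or with Gm28053. The authors counted reads without strand in the union mode of HTSeq, which leaves reads over exons of several genes uncounted. Reads of the shared bases may thus be missing from the Gimap1 values or be counted in them. Which holds depends on the authors' annotation, which is not given. The shared part was 3.48% for Gimap7 and 3.69% for Gimap5, both with Gm28053, and none for the other members. For these 4 genes the exact permutation test of 4 against 4 libraries (70 arrangements) gave p = 0.029, two-sided, which is the smallest it can give. Groups without overlap were found for 23.8% of all genes tested, 10.6% with the Th17 libraries lower and 13.2% with them higher. On fragments limma-voom called the same 4 members, beside 19.2% of all genes tested.

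The other 4 members did not pass the test, in which libraries were not paired. Gimap3, which is close in sequence to Gimap5, was at 274, 481, 201, and 175 FPKM in Th0 cells and at 228, 278, 149, and 147 FPKM in Th17 cells, with a log2FC of -0.43 (SE 0.34, adjusted p = 0.42). Stretches of 100 bases shared with Gimap5 made up 1.65% of the positions of the Gimap3 transcripts. Gimap4, described as a factor in the programmed death of T cells, was at 183, 220, 242, and 197.7 FPKM in Th0 cells and at 268, 261, 264, and 206 FPKM in Th17 cells, with a log2FC of 0.24 (SE 0.13, adjusted p = 0.24). In 3 of the Th17 libraries Gimap4 was above all Th0 libraries, and the Th17 library M43_5 was within their range.

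Gimap9 was at 74.1, 130.2, 78.7, and 57.6 FPKM in Th0 cells and at 101, 157, 93.7, and 75.7 FPKM in Th17 cells, a log2FC of 0.34 (SE 0.28, adjusted p = 0.45). Gimap8, the longest protein of the family, with more than one GTPase domain, was at 56.8, 99.1, 34.9, and 32.5 FPKM in Th0 cells and at 74.6, 92.8, 49.8, and 44.8 FPKM in Th17 cells, a log2FC of 0.31 (SE 0.37, adjusted p = 0.61). For both the groups overlapped, and the standard errors were the widest of the family together with that of Gimap3. Single libraries moved all 3 values. Without Th0 library M29_1 the log2FC was -0.14 for Gimap3, 0.63 for Gimap8, and 0.56 for Gimap9. Over the 8 libraries left out singly it ran from -0.62 to -0.14 for Gimap3, from 0.11 to 0.63 for Gimap8, and from 0.14 to 0.56 for Gimap9, and none of these values passed the test. The lowest came without Th0 library M43_1 for Gimap3 and Gimap8 and without Th17 library M29_5 for Gimap9.

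Set side by side by the beginning of the heading, as a description without a test, the 4 differences had one sign for 7 of the 8 members in Th17 cells. They were positive for Gimap9, from 0.25 to 0.44 on the log2 scale, and for Gimap4, from 0.058 to 0.55. They were negative for Gimap3, from -0.79 to -0.24, and for the 4 members that passed the test. For Gimap8, 3 of 4 were positive.

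iTreg cells were compared with the same Th0 libraries in their own table, where the authors had scaled the values separately, so that the Th0 values are slightly lower than those above. Again 4 of the 8 members were lower, Gimap7, Gimap6, Gimap4, and Gimap1, and none was higher. Over all 10208 genes tested 8.21% were lower, 8.36% were higher, and 16.6% were called in all. The median log2FC was -0.74 over the members and 0.011 over all genes tested. Both comparisons share their Th0 libraries, so they are not independent of each other.

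Gimap7 had the largest difference of the family. It was at 1.23, 3.51, 2.36, and 1.497 FPKM in the iTreg libraries M22_4, M29_4, M42_4, and M43_4 and between 9.15 and 12.04 FPKM in the Th0 libraries. The iTreg mean was 21.1% of the Th0 mean, and the log2FC was -1.88 (SE 0.22, adjusted p = 0.00066). On fragments, which need no pseudocount of 1 FPKM, the fold change was -2.35 on the log2 scale by limma-voom. At 17 fragments in the poorest library this was the lowest count of any member.

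Gimap6 was at 69.9, 91.6, 102, and 87.9 FPKM in iTreg cells and between 139 and 214 FPKM in Th0 cells, without overlap. Its log2FC was -0.87 (SE 0.17, adjusted p = 0.0093). Gimap4 was at 89.0, 143, 152, and 149 FPKM in iTreg cells and between 181 and 239 FPKM in Th0 cells, likewise without overlap, a log2FC of -0.66 (SE 0.18, adjusted p = 0.040). Gimap1 was at 68.8, 77.7, 85.7, and 83.4 FPKM in iTreg cells and between 99.1 and 137 FPKM in Th0 cells, a log2FC of -0.48 (SE 0.13, adjusted p = 0.036). The calls of Gimap4 and Gimap1 were close to the threshold. When each of the 8 libraries was left out in turn, each of these calls was lost in 7 cases, with adjusted p between 0.048 and 0.098 for Gimap4, whose call held without iTreg library M22_4, and between 0.047 and 0.10 for Gimap1, whose call held without Th0 library M42_1.

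Gimap5 did not pass, at a log2FC of -0.82 (SE 0.24, adjusted p = 0.0502). Its iTreg libraries lay apart from each other, at 18.5 and 20.8 FPKM in M22_4 and M29_4 and at 42.1 and 35.0 FPKM in M42_4 and M43_4, but all were below the 47.4 FPKM of the lowest Th0 library. Without iTreg library M42_4 the fold change was -1.02 on the log2 scale with adjusted p = 0.018. Gimap3 was at 117, 170.4, 158, and 122 FPKM in iTreg cells and between 172 and 477 FPKM in Th0 cells, a log2FC of -0.88 (SE 0.30, adjusted p = 0.084). Groups that did not overlap were found for 6 members, Gimap1, Gimap3, Gimap4, Gimap5, Gimap6, and Gimap7, all with iTreg cells lower, and for 22.8% of all genes tested, 11% with iTreg cells lower.

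Gimap8 and Gimap9 overlapped between iTreg and Th0 cells. Gimap8 was at 41.3, 54.7, 41.9, and 35.9 FPKM in iTreg cells, a log2FC of -0.21 (SE 0.33, adjusted p = 0.74). Gimap9 was at 67.0, 92.3, 73.5, and 69.97 FPKM in iTreg cells, a log2FC of -0.098 (SE 0.23, adjusted p = 0.83). In the side-by-side reading by heading beginning, all 4 differences were negative for Gimap3, from -1.48 to -0.33, for Gimap5, from -1.36 to -0.30, and for the 4 members that passed the test, whereas Gimap8 and Gimap9 were mixed. Without Th0 library M29_1 the values of Gimap8 and Gimap9 turned positive, at 0.11 for Gimap8 and 0.13 for Gimap9.

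**Figure D2:**
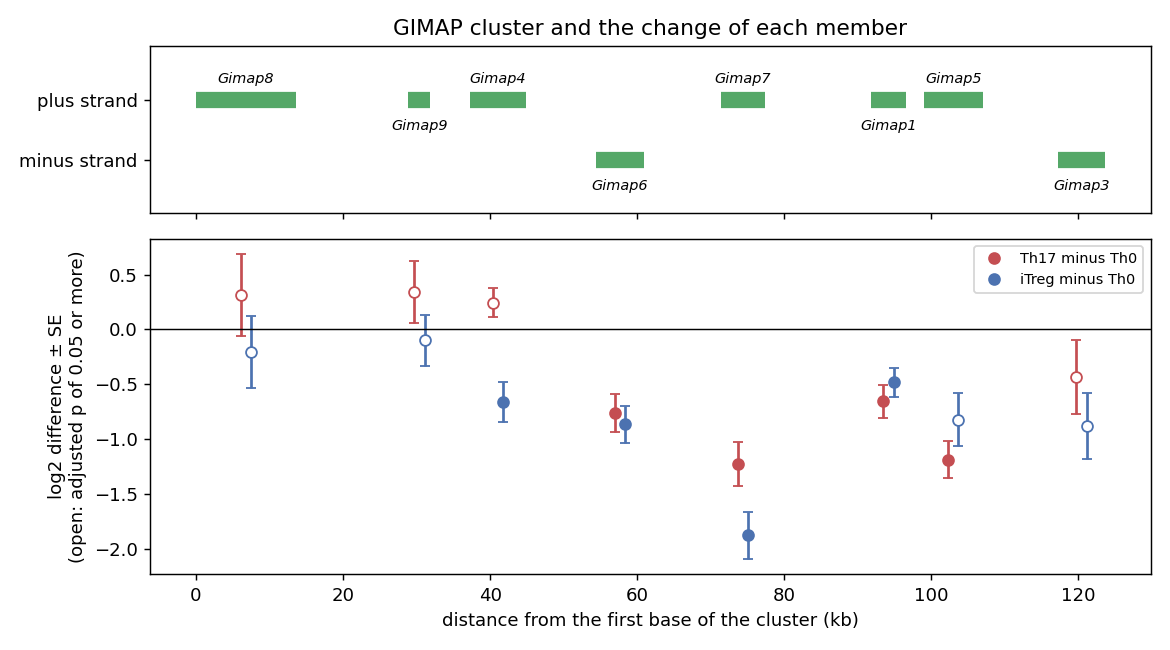
Upper panel, the span of each GIMAP gene by strand against the distance in kb from the first base of the cluster. Lower panel, log2 difference of log2(FPKM + 1) between Th17 (red) or iTreg (blue) and Th0 cells, 4 against 4 libraries, with standard errors, filled where adjusted p was under 0.05. Gimap8 and Gimap9, at the left end, are not filled in either comparison, and Gimap7, near the middle, has the lowest values, at -1.23 and -1.88.

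Along the chromosome the members that passed the test did not include the leftmost pair, Gimap8 and Gimap9, nor Gimap3 at the right end. Of 52 other genes annotated within 500 kb of the cluster, 14 were listed in a table. In Th17 cells 5 of the 11 tested were lower and none was higher, and in iTreg cells 4 of 10 were lower and none was higher. Over all genes tested 8.69% were lower and 10.6% higher in Th17 cells, and 8.21% were lower and 8.36% higher in iTreg cells. The neighbours' median log2FC was -0.92 in Th17 and -0.34 in iTreg cells, beside -0.00071 and 0.011 over all genes tested. The lower ones, named after their values were seen, were Zfp467, Zfp862-ps, Sspo, Igf2bp3, and Repin1 in Th17 cells and Zfp467, Sspo, Repin1, and Krba1 in iTreg cells. Sspo and Igf2bp3 did not exceed 0.031 and 0.955 FPKM in Th17 cells, nor Sspo 0.091 FPKM in iTreg cells. There they passed the filter of 1 FPKM through Th0 libraries only and could only be called lower. The neighbours' counts and medians include them and in part follow from the filter. Repin1, 48.2 kb from the cluster, fell by 0.92 and Zfp467, at 201 kb, fell by 2.51 on the log2 scale in Th17 cells. The other lower genes lay 112 to 314 kb away. Zfp775 and Lrrc61, at 24.0 and 76.5 kb, were tested and were called in neither comparison. AI854703, the nearest listed gene, at 13.5 kb, was too low to be tested. So were Tmem176b and Tmem176a in Th17 cells, at 63.0 and 70.1 kb, though every Th17 library was above every Th0 library. Their means were 0.238 FPKM in Th0 and 1.61 FPKM in Th17 cells for Tmem176b, and 0.143 and 2.63 FPKM for Tmem176a. Gpnmb, untested in iTreg cells, went the other way there without overlap, from a mean of 4.13 FPKM in Th0 to 0.126 FPKM in iTreg cells.

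The summed FPKM of the 8 members was taken as the transcript level of the family. It was 911, 1342, 866, and 765 FPKM in the Th0 libraries M22_1, M29_1, M42_1, and M43_1 and 856, 1026, 744, and 635 FPKM in the Th17 libraries, so the groups overlapped. In the iTreg table the Th0 libraries were between 756 and 1330 FPKM and the iTreg libraries at 473, 654, 657, and 585 FPKM, all below Th0. The means were 971 ± 255 FPKM in Th0 and 815 ± 167 FPKM in Th17 cells and, in the other table, 961 ± 254 FPKM in Th0 and 592 ± 86.3 FPKM in iTreg cells (SD, n = 4). No test was made of the sum, since the members had been chosen with earlier results known.

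The makeup of the sum differed between the kinds of cells. Gimap4 made up 16.4% to 28.0% of the family sum in Th0 libraries, 25.4% to 35.5% in Th17 libraries, and 18.8% to 25.5% in iTreg libraries. Gimap6 made up 17.0% on average in Th0, 11.8% in Th17, and 14.8% in iTreg cells, and the ranges of the 3 groups did not overlap. Gimap9 made up 7.53% to 9.70% in Th0 libraries and more in every Th17 library, at 11.8% to 15.3%, and in every iTreg library, at 11.2% to 14.2%. The mean share of Gimap7 was 1.12% in Th0, 0.480% in Th17, and 0.353% in iTreg cells. In the order of mean levels Gimap4 came first in Th17 cells, followed by Gimap3, Gimap9, Gimap6, Gimap1, Gimap8, Gimap5, and Gimap7. In iTreg cells the order was that of Th0 cells. In Th17 cells the neighbours that did not overlap were Gimap8 above Gimap5 and Gimap5 above Gimap7, and in iTreg cells they were Gimap9 above Gimap8 and Gimap5 above Gimap7.

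**Figure D3:**
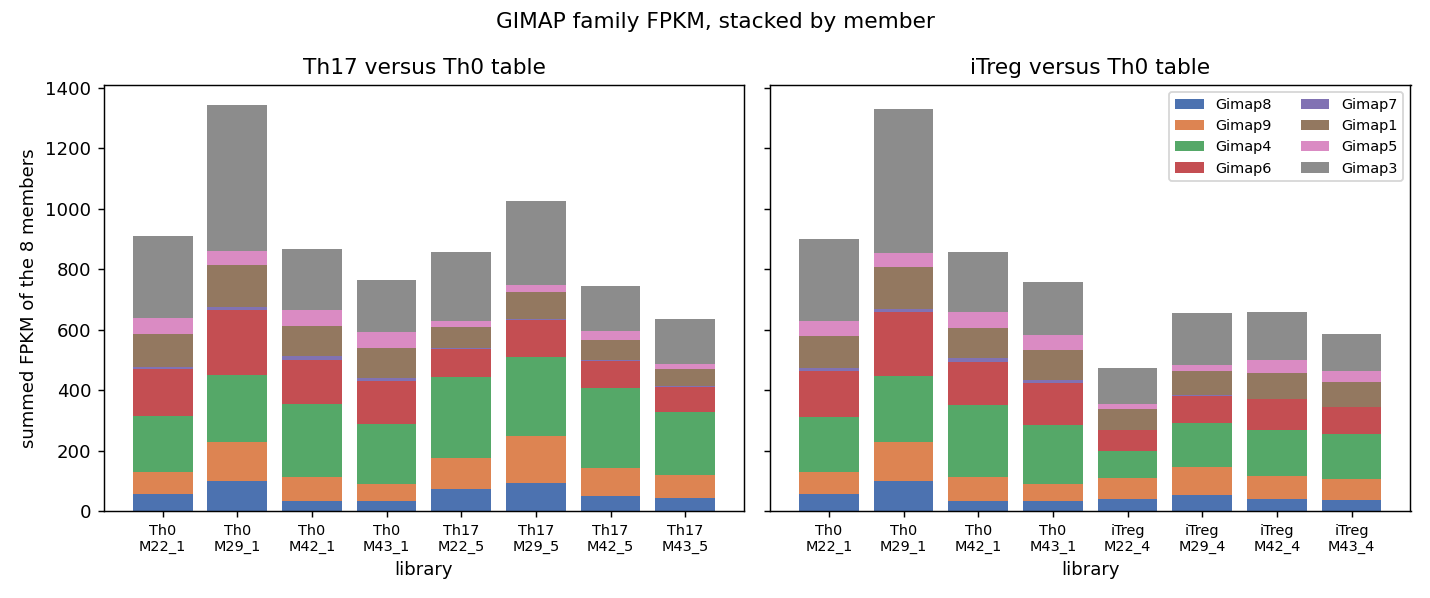
Summed FPKM of the 8 GIMAP genes in each library, stacked by member, for the Th17 versus Th0 table (left) and the iTreg versus Th0 table (right). The iTreg bars reach 473 to 657 FPKM, all below the Th0 bars, and the tallest bar in both panels is Th0 library M29_1.

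The whole fragments allowed Th17 and iTreg libraries to be set on a common scale, in CPM (fragments of a gene scaled to a fixed library size), and compared with each other, a comparison added after the data were seen. Only 1 of the 8 members, Gimap4, differed (limma-voom, adjusted p under 0.05), where 11.2% of 10792 genes tested were called, 6.12% higher and 5.13% lower in Th17 cells. Gimap4 was at 479, 464, 469, and 370.2 CPM in the Th17 libraries M22_5, M29_5, M42_5, and M43_5 and at 161, 256, 276, and 266 in the iTreg libraries M22_4, M29_4, M42_4, and M43_4. The lowest Th17 library was above the highest iTreg library, as for 10.1% of all genes tested. The groups did not overlap in either direction for 19.1%, with 9.03% lower in Th17 cells. The means were 445 ± 50.6 in Th17 and 240 ± 53.1 in iTreg cells (SD, n = 4), a log2 difference of 0.92 (SE 0.18, adjusted p = 0.015). The mean of the Th0 libraries, 376 ± 49.9 CPM, lay between those of Th17 and iTreg cells.

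For the other 7 members adjusted p lay between 0.16 and 0.70. Gimap7 was at 4.94 ± 1.78 CPM in Th17 and 2.71 ± 1.29 in iTreg cells, a log2 difference of 0.93 (SE 0.38, adjusted p = 0.16). Gimap5 was at 41.9 ± 10.6 in Th17 and 56.2 ± 22.1 in iTreg cells, a log2 difference of -0.35 (SE 0.29, adjusted p = 0.48). The difference of Gimap6 was 0.11 with a standard error of 0.15, and that of Gimap1 was -0.17 with a standard error of 0.13. Gimap8, Gimap9, and Gimap3 were higher in Th17 cells by 0.53, 0.44, and 0.45 on the log2 scale, with standard errors of 0.23, 0.21, and 0.23, and did not pass the test.

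**Figure D4:**
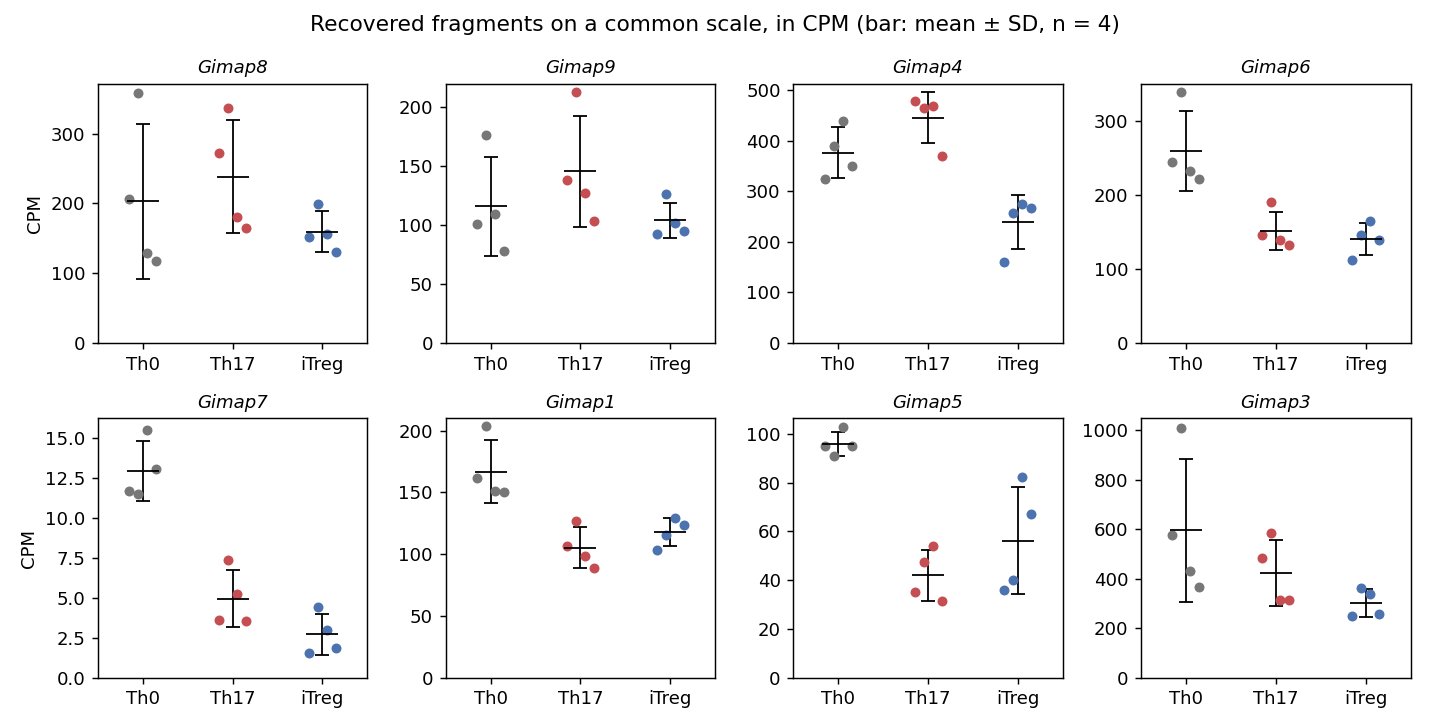
Recovered fragments in CPM on a common scale for each GIMAP gene in Th0, Th17, and iTreg libraries. Points are libraries, and bars give the mean and SD of 4. The 4 Th17 points of Gimap4 lie above the 4 iTreg points, whereas those of the other 7 members overlap.

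Genes that work with or near GIMAP proteins were taken from fixed lists. Of 12 BCL2 family genes, which set the threshold of programmed cell death, 3 were lower and none higher in Th17 cells, where 8.69% of all genes tested were lower and 10.6% higher. The median log2FC of the 12 was -0.27 in Th17 and 0.033 in iTreg cells. Bcl2, an inhibitor of cell death, averaged 10.6 ± 6.65 FPKM in the Th17 group against 26.6 ± 1.55 FPKM in Th0 (SD, n = 4), with log2FC -1.39 and adjusted p = 0.013. Bcl2a1b, another inhibitor, fell by 1.95 and Bcl2l11, which encodes the death-promoting protein BIM, fell by 1.07 on the log2 scale. In iTreg cells, where 8.21% of all genes tested were lower, only Bcl2l11 of the 12 was lower, at a log2FC of -1.17 (adjusted p = 0.0037), and Bcl2 was at 34.9 ± 10.1 FPKM against 26.3 ± 1.52 FPKM in Th0 cells (adjusted p = 0.23).

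Of 5 genes of the ATG8 family, the conjugated proteins of autophagosomes, Map1lc3a was higher in both comparisons, with log2FC values of 0.53 in Th17 and 0.93 in iTreg cells, and Gabarapl1 was lower in Th17 cells, at -0.55. The median of the 5 was 0.27 in Th17 and 0.26 in iTreg cells, beside -0.00071 and 0.011 over all genes tested. Of all genes tested, 10.6% were higher and 8.69% lower in Th17 cells, and 8.36% were higher and 8.21% lower in iTreg cells. Gabarapl2, whose protein binds GIMAP6, had log2FC values of -0.34 (adjusted p = 0.056) in Th17 and -0.12 (adjusted p = 0.60) in iTreg cells.

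Of 7 genes for GSK3 and proteins under its control, a pathway reported downstream of GIMAP5, 1 was higher in Th17 cells, Ctnnb1 (β-catenin), at a log2FC of 0.56. In iTreg cells Myc and Ctnnb1 were higher, by 1.05 and 0.39, and Axin2 and Nfatc1 were lower, at -1.13 and -0.47. The median of the 7 was 0.12 in Th17 and -0.20 in iTreg cells, and called genes made up 19.3% and 16.6% of all genes tested. Gsk3b itself, the kinase, had log2FC values of 0.12 (adjusted p = 0.44) and -0.050 (adjusted p = 0.78).

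Of 14 genes of the naive state and of T cell trafficking, 5 were higher and 1 was lower in Th17 cells, with a median log2FC of 0.82, and 1 was higher and 4 were lower in iTreg cells, with a median of -0.036. Over all genes tested 10.6% were higher and 8.69% lower in Th17 cells, and 8.36% were higher and 8.21% lower in iTreg cells. Il7r, the receptor chain for IL7, rose from 4.62 ± 1.64 to 30.7 ± 11.05 FPKM in Th17 cells (log2FC 2.47), S1pr1, a receptor for egress from lymph nodes, rose by 2.17, Foxo1, a transcription factor of quiescent T cells, by 1.899, and Satb1, a chromatin organizer, by 0.95 on the log2 scale. Ets1, a transcription factor of the ETS family, was higher by 0.70. Lef1 was lower, at -0.86. In iTreg cells Foxo1 was higher, at 1.11, and Cd27, Satb1, Dgka, and Lef1 were lower, at -1.23, -1.05, -0.61, and -0.40. Ets1, Lef1, and Dgka were named after their values were seen. Klf2 had log2FC values of 1.24 (adjusted p = 0.13) in Th17 and 0.064 (adjusted p = 0.96) in iTreg cells.

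The genes whose pattern was most like the mean of the 8 members were sought by the lower of the Pearson correlations over the 8 libraries of each table. The search covered 8035 other genes tested in both tables and above a set minimum mean level in Th0 cells. They were Clec2d (0.95), Sh3bp2 (0.93), A930024E05Rik (0.93), Chd3os (0.93), Pnrc1 (0.93), and Hspa4l (0.93). The tables share their Th0 libraries, and the values are a description without a test. The members themselves followed that mean unevenly. In the Th17 table their correlations with it were -0.11 for Gimap4, 0.44 for Gimap9, 0.48 for Gimap8, 0.70 for Gimap5, and 0.72 for Gimap7. Those of Gimap3, Gimap6, and Gimap1 were 0.90 to 0.93. In the iTreg table they ran from 0.57 for Gimap9 to 0.99 for Gimap6. The genes most like that mean were picked over the same libraries that the test used, so their calls are no separate evidence. Sh3bp2, A930024E05Rik, and Chd3os passed the test in both comparisons, and Pnrc1 and Hspa4l in iTreg cells only. The log2FC of Sh3bp2 was -1.23 in Th17 and -1.18 in iTreg cells. Clec2d passed in neither comparison, at -0.33 and -0.78.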

How the data were processed

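RNA of 4 Th0, 4 Th17, and 4 iTreg cultures was sequenced (12 libraries, grouped by the labels). The authors mapped reads to mm10 with TopHat2 (version 2.0.14 per the submitters' processing notes), counted them on exons with HTSeq without strand, used edgeR, and removed genes of low CPM. Their annotation and FPKM calculation are not given in the sources used here. Deposited FPKM values come in 2 tables of 8 libraries, each scaled by the authors separately. Their columns of fold changes, average CPM, test scores, p-values, and FDR were not used. The paper states that the authors' tests used a paired design. No experiment number stands in the column headings, so libraries were not paired here.

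Genes above 1 FPKM in at least 4 of 8 libraries were tested within a table on log2(FPKM + 1) with limma 3.58.1 (R 4.3.3), two-sided, with Benjamini-Hochberg adjustment over all of them, and members also with an exact permutation test. All 11077 and 11056 genes had FPKM values that were whole fragments within 0.005 fragments. Those fragments were tested with limma-voom as an added alternative and, scaled together by the median of ratios, for Th17 versus iTreg. Scripts were tested on simulated data.

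Members and lists were chosen with earlier results of these data known. All members were named, and from the lists those past the threshold in either comparison, up to 5 a list by the size of the change, with Bcl2, Il7r, Klf2, Gabarapl2, and Gsk3b in any case. The cluster neighbours, Ets1, Lef1, and Dgka were named outside that rule. The alternatives were another pseudocount, no filter, median centring, limma-trend, a stricter threshold, and each library left out. Coordinates are from GENCODE M21, promoters from RefSeq. Protein sequences were not used here. A gene of the label checks is not reported here.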

Additional observations from a re-analysis of the deposited data

Results flagged for a closer look

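Groups of 4 libraries were searched for a library apart from the rest, 24 groups in all, of which chance would flag about 1 in 20. In 2 a library stood apart, both for Gimap4. Th17 library M43_5 was at 206 FPKM, below the other 3 Th17 libraries, and iTreg library M22_4 was at 89.0 FPKM, below the other 3 iTreg libraries. The change of Gimap4 differed between the polarized cells by a test of the difference itself, at 0.92 on the log2 scale (limma-voom, adjusted p = 0.015). With each of the 8 Th17 and iTreg libraries left out in turn, the difference lay between 0.74 and 1.00 with adjusted p between 0.015 and 0.048.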

How the results depend on the processing

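The 4 members lower in Th17 cells were called with every library left out in turn (4 calls in each case), whereas in iTreg cells the calls went down to between 2 and 3. The Th17 calls of Gimap6 and Gimap1 came close to the threshold, with adjusted p of up to 0.048 and 0.045 in these limma fits. For Gimap7 and Gimap5 adjusted p reached 0.012 and 0.0071. At a threshold of 0.01, 2 members were called in Th17, 2 in iTreg, and 0 in Th17 versus iTreg cells, where leaving out a library kept 1 call. Gimap5 in iTreg cells passed without the filter (adjusted p = 0.049), with robust limma-trend (adjusted p = 0.049), and with limma-voom (adjusted p = 0.039). Over the fits that lacked 1 library, the log2 fold change in iTreg cells ran from -0.41 to 0.11 for Gimap8 and from -0.26 to 0.13 for Gimap9, positive without Th0 library M29_1, and the Th17 versus iTreg difference of Gimap6 ran from -0.0049, without Th17 library M29_5, to 0.19. The causes were not tested. Of 288 values of single members under an alternative, 267 kept their direction and side of the threshold. Without the most abundant member of each library, the mean family sums were 672 FPKM (Th0) and 561 FPKM (Th17) in one table and 665 FPKM (Th0) and 444 FPKM (iTreg) in the other. By Spearman correlation 3 of the 6 most alike genes were the same.

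No paired analysis was possible because the column headings carry no experiment number. Their shared beginnings are not stated to mark experiments, so they were used to describe differences side by side and not as a pairing or block in a fit. Depth limits Gimap7, at 17 to 143 fragments, more than the other members.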
